A study of Mus musculus with 12 samples.

Results

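Long intergenic noncoding RNAs (lincRNAs) are long transcripts from between protein-coding genes that are not thought to be read into protein. The 210 lincRNAs described here are the rows of the lung count table with biotype lincRNA that do not lie on chromosome X or Y, are not H19 or Meg3, and average at least 2 CPM (counts scaled to a library of 1000000) over all 12 libraries. They are 210 of the 4977 lincRNA rows that meet the first conditions and of the 55487 genes in the table. Of the 4977, 2448 had no count in any library. The mean level chose these genes, so their mean levels are a description. Their changes with age were not used in the choice.

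The lungs came from C57BL/6NCr mice, a substrain of C57BL/6, at 6, 12, 20 and 30 months, written 6M, 12M, 20M and 30M, with 3 libraries at each age. No genotype, treatment or transgene separates the ages in the labels. RNA was selected by its poly-A tail and read in pairs, so a lincRNA without a tail is counted only in part. The whole lung is a mixture of cells, and in such bulk samples fewer cells of a type and less RNA per cell cannot be told apart.

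Some lincRNAs act as RNA scaffolds in the nucleus: Neat1 holds paraspeckles together, and Malat1 gathers in nuclear speckles, where splicing factors are stored. Others bind proteins or small RNAs in the cytoplasm, such as Norad, which holds Pumilio proteins. Another class serves as the primary transcript from which a microRNA (miRNA) or a small nucleolar RNA (snoRNA) is cut. Immune cells switch on further lincRNAs, among them Ptgs2os2, known as lincRNA-Cox2 and induced in mouse macrophages by bacterial products.

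Sequences carried by these loci show what the transcripts are. Among the 210, 7 lincRNAs hold miRNA loci in their span, on the same strand, by the RefSeq miRNA table on GRCm38.p6. The mature miRNAs below belong to 4 of these hosts, with the seed (bases 2 to 8) in capitals, because the seed sets which messages a miRNA pairs with. Mir17hg, at chr14:115042879-115046727 on the + strand, is the host of the miR-17 to miR-92a cluster. Its miR-17-5p and miR-20a-5p share the seed AAAGUGC, its miR-19a-3p and miR-19b-3p share GUGCAAA, and miR-18a-5p and miR-92a-3p each have a seed of their own.
mmu-miR-17-5p: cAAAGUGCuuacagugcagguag
mmu-miR-20a-5p: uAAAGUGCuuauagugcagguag
mmu-miR-18a-5p: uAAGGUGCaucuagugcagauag
mmu-miR-19a-3p: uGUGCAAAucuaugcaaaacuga
mmu-miR-19b-3p: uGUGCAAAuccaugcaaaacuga
mmu-miR-92a-3p: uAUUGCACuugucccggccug

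6720427I07Rik, at chr13:48532905-48546500 on the - strand, spans let-7a-1, let-7f-1 and let-7d, whose 5p arms share the seed GAGGUAG.
mmu-let-7a-5p: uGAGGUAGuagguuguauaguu
mmu-let-7f-5p: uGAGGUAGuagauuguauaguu
mmu-let-7d-5p: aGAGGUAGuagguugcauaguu

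Mir142hg, at chr11:87755577-87757270 on the + strand, spans miR-142a, which is found mainly in blood cells. E130102H24Rik, at chr4:101346531-101356735 on the - strand, spans miR-101a.
mmu-miR-142a-3p: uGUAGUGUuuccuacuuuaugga
mmu-miR-142a-5p: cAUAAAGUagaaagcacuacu
mmu-miR-101a-3p: uACAGUACugugauaacugaa

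The mature miRNAs are not measured by these poly-A libraries, which count the host transcript alone. The next sequences are the promoters of the 2 lincRNAs that edgeR called in a test over age, Gm36161 and Ptgs2os2, from 250 bases before to 50 bases after the RefSeq start. Capitals mark matches, on either strand, to TTCNNNGAA, the core that STAT factors recognise, or to GAAA, any 2 bases and GAAA again, a core of the interferon-stimulated response element (ISRE). Gm36161 has its window at chr13:120010092-120010391 on the + strand of GRCm38.p6, and Ptgs2os2 at chr1:150164899-150165198 on the - strand.
Gm36161 promoter: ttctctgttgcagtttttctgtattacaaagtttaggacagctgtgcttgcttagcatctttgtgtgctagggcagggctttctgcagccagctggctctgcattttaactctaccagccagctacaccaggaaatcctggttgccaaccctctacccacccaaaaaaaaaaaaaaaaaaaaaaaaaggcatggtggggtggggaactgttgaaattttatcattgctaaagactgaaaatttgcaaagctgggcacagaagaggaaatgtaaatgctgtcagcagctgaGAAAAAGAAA
Ptgs2os2 promoter: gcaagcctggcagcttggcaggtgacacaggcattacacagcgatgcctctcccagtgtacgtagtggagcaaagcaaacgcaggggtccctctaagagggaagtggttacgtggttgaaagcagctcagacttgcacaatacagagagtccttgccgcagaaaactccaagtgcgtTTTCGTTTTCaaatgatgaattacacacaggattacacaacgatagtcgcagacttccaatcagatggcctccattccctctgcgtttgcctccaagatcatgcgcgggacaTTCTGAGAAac

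The Gm36161 window held 1 match to the ISRE core, at its last bases, and had no CpG pair, with a GC content of 42.3%. The Ptgs2os2 window held 1 match to each of these motifs, with a CpG observed-to-expected ratio of 0.623 and a GC content of 50.7%. The ISRE core occurred in 6 of the 116 lincRNA promoters that could be matched by symbol, or 5.17%, and in 3.49% of the 27025 RefSeq promoters of this length. TTCNNNGAA occurred in 9.48% of the 116 and in 8.47% of all. TATAAA was found in 12.9% of the 116 and 14.2% of all, and TGANTCA, the AP-1 core, in 6.03% of the 116 and 7.93% of all. The ISRE core and TTCNNNGAA can overlap, since both may use the same GAA. The median CpG ratio was 0.389 in the 116 lincRNA promoters and 0.389 in all promoters, with 36.2% and 36.5% of them at 0.6 or more. Such matches are letters in a window and not evidence of binding.

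The libraries held 12152066 to 15058628 counts each, and levels below are CPM with TMM scaling, a correction for library composition. Library 12M_208 stood apart from the other 12M libraries in these lincRNAs, as described further on. In 20M_222, markers of skeletal muscle summed to 3639 CPM, while the other 11 libraries had 47.85 CPM or less. Genes of high GC content were raised against the 6M mean in 20M_221, 20M_222 and 30M_220, where the rank correlation of change with GC content across all tested genes was 0.358, 0.465 and 0.328. It was 0.229 in 12M_208. Summed markers of lung alveolar epithelium were at 19166 to 37722 CPM in the 12 libraries, so the defining markers of lung tissue were present in each. Several sets of immune cell markers were higher at 30M than at 6M. Macrophage markers summed to 672.4 to 797.7 CPM at 30M against 291.7 to 328.5 CPM at 6M, and 6 of their 10 genes rose. T and NK cell markers summed to 203.3 to 233.8 CPM at 30M against 98.38 to 120.9 CPM at 6M, with 4 of 11 genes up. Plasma cell markers summed to 2639 to 4228 CPM at 30M against 871.9 to 958.2 CPM at 6M, with 3 of 9 up. They were higher still in 12M_208, at 5066 CPM, and in 20M_222, at 4782 CPM. T and NK cell markers were at 196.8 CPM in 20M_213. B cell markers overlapped, at 98.99 to 395.4 CPM at 30M against 182 to 370.9 CPM at 6M. No marker on these lists was at 0 in all libraries. The part of cell composition in the lincRNA values below was not tested.

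The 210 lincRNAs were mostly unnamed loci: 116 have a symbol of the form Gm with a number and 64 a Rik symbol. Their merged exons measured 269 to 93147 bases with a median of 2169, against a median of 4356 bases for the 14813 protein-coding genes tested. They had a median of 3 exons in their longest-spliced transcript, against 9 for those coding genes, and 36 of them had 1 exon. The median GC content was 47.4% against 49.9%. The longest, AC160336.1, is listed as a single exon. These values come from GENCODE M21, which holds 209 of the 210 and gives all but 3 of these the same start and end.

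Counts were concentrated in few lincRNAs. Neat1 and Malat1 held 56.0% of the summed CPM of the 210, and the first 12 held 73.7%. In all, 5 reached 100 CPM, 52 reached 10 CPM and 101 were under 5 CPM. Just inside the 2 CPM limit lay Gm2682 at 2.0943, Gm20735 at 2.0394 and F730311O21Rik at 2.0368 CPM without TMM scaling. Just outside lay Gm12576 at 1.9931, Gm26510 at 1.9824 and Gm28151 at 1.9584 CPM. For 5 of the 210, the mean falls under 2 CPM once their highest library is left out.

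The share of all counts that went to these 210 lincRNAs was 0.57% ± 0.0325 at 6M, 0.45% ± 0.169 at 12M, 0.553% ± 0.0838 at 20M and 0.529% ± 0.0601 at 30M (SD, n = 3 each). Single libraries held 0.594%, 0.533% and 0.583% at 6M, 0.596%, 0.489% and 0.265% at 12M, 0.605%, 0.599% and 0.456% at 20M, and 0.467%, 0.587% and 0.534% at 30M. The lowest of these, 0.265%, was library 12M_208, and without it the 12M mean was 0.542%. The other 11 libraries overlapped between the ages.

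**Figure D1:**
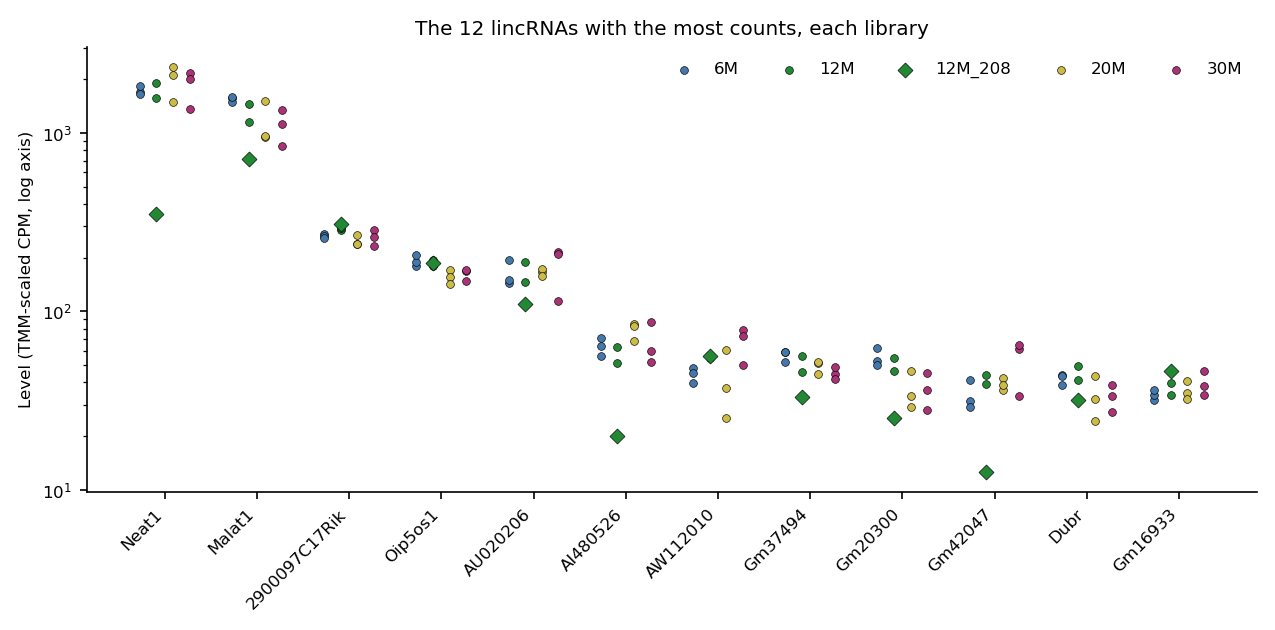
Level of the 12 lincRNAs with the most counts in each of 12 libraries (TMM-scaled CPM, log axis), coloured by age, with 12M_208 as a diamond. Neat1 in 12M_208 lies at 348.8 CPM, under all other libraries, while 2900097C17Rik and Oip5os1 stay within narrow ranges.

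Per kilobase of exon, Malat1 stood first at 175 CPM per kb, followed by Gm44036 at 103, Neat1 at 82.3 and AW112010 at 64.7 CPM per kb. Gm10076 came next at 61.5 CPM per kb, but its transcript is 99.5% identical to that of the ribosomal protein gene Rpl41, so its counts are uncertain. It ran from 6.724 CPM in 30M_220 to 86.74 CPM in 12M_208. Gm44036 lies opposite the coding gene Anxa4, and strand use in counting is not known, so its counts are uncertain as well. In total 24 of the 210 have a near copy at 95% identity or more over at least 50% of the transcript.

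Malat1 (chr19:5795690-5802672) is the speckle lincRNA. It was at 1573, 1482 and 1599 CPM at 6M, 1451, 1153 and 711.0 CPM at 12M, 1508, 944.3 and 957.4 CPM at 20M, and 1342, 1119 and 840.0 CPM at 30M. All 3 libraries at 30M lay below all 3 at 6M. The log2 change of 30M over 6M was -0.50 ± 0.27 (SE), with an adjusted p of 0.528 by edgeR's quasi-likelihood test, so it was not called. The low values at 20M were those of 20M_221 and 20M_222, and the lowest at 30M was that of 30M_220.

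Neat1 (chr19:5824708-5845478), the paraspeckle scaffold, lies next to Malat1 on the same strand. It was at 1685, 1662 and 1841 CPM at 6M, 1910, 1575 and 348.8 CPM at 12M, 2124, 2333 and 1493 CPM at 20M, and 1366, 2172 and 2001 CPM at 30M. The ages overlapped, with a log2 change of 0.09 ± 0.45 (SE) for 30M over 6M and an adjusted p of 0.974.

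The steadiest lincRNA was 2900097C17Rik, whose RefSeq symbol is Norad (chr2:156388065-156392979). Its coefficient of variation over 12 libraries was 8.67%, and its libraries ran from 231.7 to 306.8 CPM. It averaged 259 ± 26.5 CPM at 30M and 264 ± 5.65 CPM at 6M (SD, n = 3 each). Oip5os1, known as Cyrano, which binds the miRNA miR-7, had a coefficient of variation of 10.8% and averaged 163 ± 13.01 CPM at 30M and 191 ± 13.96 CPM at 6M. All 3 libraries of Oip5os1 at 30M lay below all 3 at 6M, with a log2 change of -0.23 ± 0.12 (SE) and an adjusted p of 0.523. F420014N23Rik followed at 10.3%, and Snhg18 and Gm16933 were also among the 10 of the 210 under 15%. The median coefficient of variation of the 210 was 29.1%, and 26.1% without 12M_208, against 18.6% for the 15526 tested genes at 2 CPM or more. Low counts widen this measure.

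At 30M, 1 of the 210 lincRNAs was called at an adjusted p under 0.05 against 6M (edgeR quasi-likelihood, 18407 genes tested). Over all tested genes 1.96% were called, 1.93% higher and 0.0272% lower. The 1 call among 210, or 0.476%, was Gm36161, which rose. At an unadjusted p under 0.05, 15 of 210 or 7.14% passed, 8 higher and 7 lower, against 11.6% of all tested genes. All 3 libraries at 30M lay above all 3 at 6M in 13 of 210, or 6.19%, against 9.89% of all genes, and below in 22, or 10.5%, against 8.66%. The median log2 change of the 210 was -0.08, beside 0.003 for all tested genes, and it was 0.02 without 30M_216 and -0.18 without 30M_218. Within 1.5-fold of 6M lay 174 of 210, while 4 were at least 2-fold higher and 4 at least 2-fold lower by their fitted change.

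At 20M, 0 of 210 were called against 6M, where 0.0163% of all tested genes were. At an unadjusted p under 0.05, edgeR gave 8 of 210, or 3.81%, against 7.8% of all genes. By adjusted p under 0.05, limma voom called 3 of 210 and DESeq2 0, and their shares of all genes are not given here. All 20M libraries lay above all 6M libraries in 9 of 210, or 4.29%, against 7.77% of all genes, and below in 15, or 7.14%, against 7.58%. At 12M, 0 of 210 were called against 6M, as were 0% of all genes. The unadjusted count by edgeR there was 7 of 210, or 3.33%, against 3.6%. By adjusted p under 0.05, limma voom and DESeq2 called 0 each. All 12M libraries lay above all 6M libraries in 9 of 210, or 4.29%, against 6.3% of all genes, and below in 11, or 5.24%, against 5.81%. These comparisons share the 6M libraries. The median log2 change was -0.01 at 20M beside 0.03 for all genes, and -0.13 at 12M beside 0.02 for all genes. Without 12M_208 the 12M median was -0.006, with 104 lincRNAs above 0 and 106 below.

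A slope per month over all ages called 2 of 210, Gm36161 upward and Ptgs2os2 downward, against 2.68% of all tested genes, 2.5% upward and 0.179% downward. A joint test over the 4 ages called 1 of 210, Gm36161, against 1.11% of all tested genes. At an unadjusted p under 0.05 the slope gave 21 of 210, or 10%, against 13.3% of all genes, with 7 upward and 14 downward.

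Gm36161 (ENSMUSG00000114608, chr13:120010390-120018931, + strand, 4 exons in its longest-spliced transcript) has no known role. It was at 4.777, 3.384 and 2.183 CPM at 6M, 8.337, 4.295 and 4.645 CPM at 12M, 8.773, 5.001 and 2.880 CPM at 20M, and 23.71, 19.85 and 12.61 CPM at 30M. Every 30M library lay above every library of the other ages. It averaged 18.7 ± 5.63 CPM at 30M and 3.45 ± 1.30 CPM at 6M (SD, n = 3 each), a log2 change of 2.43 ± 0.43 (SE) with an adjusted p of 0.0115 by edgeR. The slope was 0.09 ± 0.02 log2 per month (SE, adjusted p = 0.00767). Without 6M_202 the 30M call was lost at an adjusted p of 0.067, and without 6M_203 at 0.088, while the log2 change was 2.42 and 2.19. The slope was called in all 22 alternatives run for it.

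Its counts are uncertain, because the transcript has a near copy, 95.7% identical over its whole length, in the protein-coding gene Gm21188 (chr13:120034605-120052194, - strand). Gm21188 was at 26.69, 19.11 and 14.81 CPM at 30M and 4.627, 2.064 and 2.344 CPM at 6M, with a log2 change of 2.73 ± 0.47 (SE) and an adjusted p of 0.0107. Both genes therefore rose, in the same libraries and by similar sizes, and these counts cannot tell which of the copies the reads came from. The nearest coding gene to Gm36161, Gm36079, had 12 counts over all libraries and was not tested.

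Ptgs2os2 (ENSMUSG00000097754, chr1:150159043-150164948, - strand) fell along the slope. It was at 7.240, 8.254 and 8.488 CPM at 6M, 7.060, 12.55 and 5.659 CPM at 12M, 6.464, 4.438 and 3.840 CPM at 20M, and 4.677, 2.214 and 3.168 CPM at 30M. Each library at 20M and 30M lay below each at 6M, while 12M covered a wider range. The slope was -0.06 ± 0.01 log2 per month (SE, adjusted p = 0.0343 by edgeR). It averaged 3.35 ± 1.24 CPM at 30M and 7.99 ± 0.664 CPM at 6M, and the log2 change of -1.25 ± 0.34 (SE) had an adjusted p of 0.0964. The slope call held in 15 of 22 alternatives and was lost without 6M_202, 6M_203, 12M_206, 30M_218 or 30M_220, each left out alone, with adjusted p up to 0.119 in these.

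Ptgs2, the coding gene for cyclooxygenase-2, is the nearest coding gene to Ptgs2os2, at 50815 bases and in convergent orientation. Ptgs2 was at 13.55, 9.923 and 9.117 CPM at 30M and 31.65, 19.65 and 13.74 CPM at 6M. All 30M libraries lay below all 6M libraries, but neither the 30M comparison (log2 change -0.999, adjusted p = 0.257) nor the slope (adjusted p = 0.0997) was called.

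**Figure D2:**
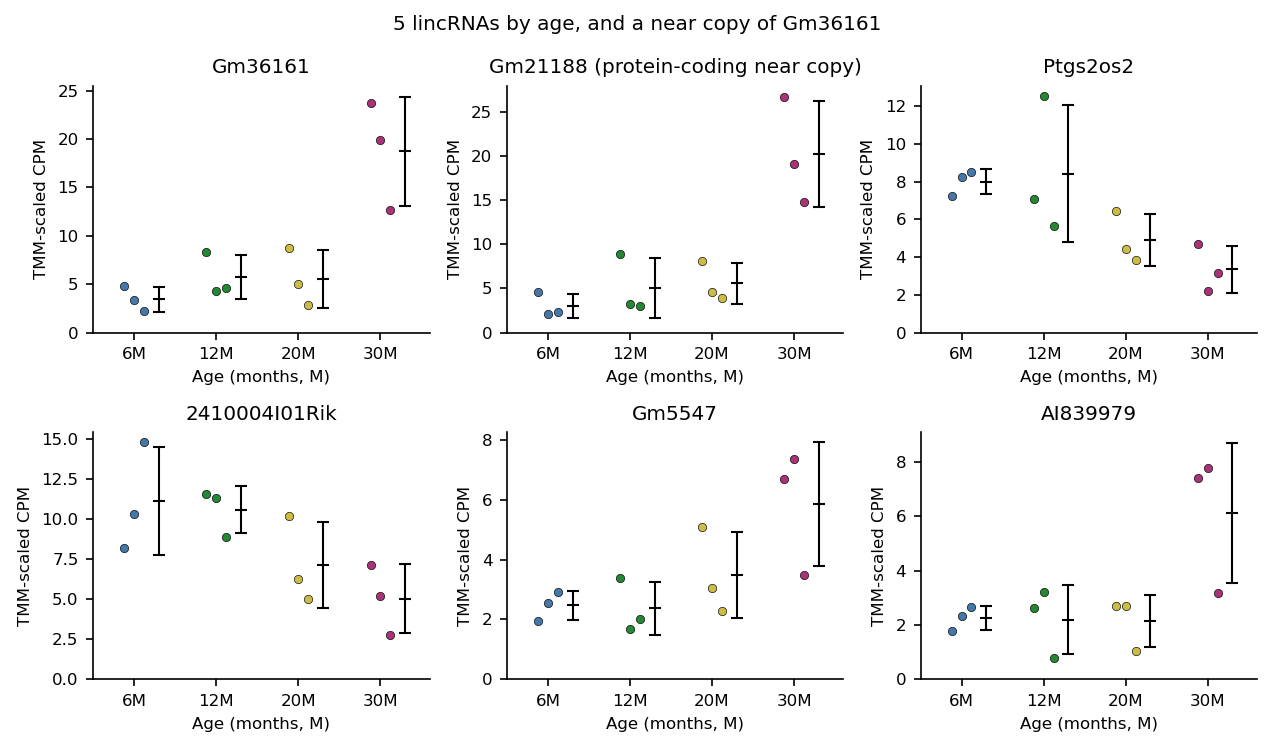
Level (TMM-scaled CPM, axis from 0) of 5 lincRNAs and of Gm21188, a protein-coding near copy of Gm36161, at 4 ages, with a point for each library and the mean ± SD of 3 libraries beside it. Gm36161 and Gm21188 have all 30M libraries above the rest, and Ptgs2os2 and 2410004I01Rik have all 30M libraries below all 6M libraries.

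Other large differences at 30M did not pass the edgeR test, though DESeq2 called 2410004I01Rik (adjusted p = 0.042) and limma voom called Gm5547 (adjusted p = 0.0418). 2410004I01Rik averaged 5.01 ± 2.16 CPM at 30M and 11.1 ± 3.36 CPM at 6M, a log2 change of -1.15 ± 0.35 (SE) with an adjusted p of 0.146. Its libraries were at 7.096, 5.167 and 2.780 CPM at 30M against 8.210, 10.32 and 14.79 CPM at 6M, without overlap. Gm5547 was at 6.693, 7.381 and 3.492 CPM at 30M against 1.941, 2.559 and 2.910 CPM at 6M, also without overlap, with a log2 change of 1.24 ± 0.39 (SE) and an adjusted p of 0.171. AI839979 was at 7.419, 7.791 and 3.168 CPM at 30M against 1.791, 2.311 and 2.668 CPM at 6M, again without overlap, with a log2 change of 1.43 ± 0.51 (SE) and an adjusted p of 0.237. The coding genes nearest to Gm5547 and AI839979, Rap1a and Slc4a1ap, had adjusted p of 0.855 and 0.993.

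Among the remaining lincRNAs with the largest differences at 30M, Gm15675, B530045E10Rik, Gm45332, Mir17hg and Platr22 had log2 changes from -1.04 for Gm15675 to -0.81 for Platr22, with adjusted p from 0.461 to 0.729 by edgeR. Without 30M_216 the log2 change of Gm15675 was -0.69 and that of Mir17hg -0.55. Without 30M_218 that of Mir17hg was -1.33, and without 30M_220 that of B530045E10Rik was -1.56. Gm50321 and Gm44148 had 0.82 each, but a single library set each value: 13.12 CPM in 30M_218 for Gm50321 and 12.74 CPM in 30M_216 for Gm44148. Without that library the log2 change was -0.27 for Gm50321 and -0.02 for Gm44148. Gm50321 also has near copies. Gm26878 had 0.72 and an adjusted p of 0.611.

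At 20M the largest difference was that of Gm30928, at 3.771, 5.438 and 4.209 CPM at 20M against 2.761, 1.816 and 1.698 CPM at 6M. These did not overlap, and the log2 change was 1.09 ± 0.29 (SE) with an adjusted p of 0.638. Gm30928 was back at 2.097, 1.968 and 2.328 CPM at 30M, inside the 6M range. Lat, its nearest coding gene and an adaptor of the T cell receptor, had another pattern: it rose at 30M, to 22.5 ± 6.41 CPM against 10.2 ± 1.51 CPM at 6M (log2 change 1.14, adjusted p = 0.0204 by edgeR).

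The other lincRNAs with large log2 differences at 20M were F630042J09Rik at -0.93 and C030034L19Rik at -0.80 on the lower side. Gm41381 at 0.98, A830052D11Rik at 0.95 and Gm50186 at 0.83 stood on the higher side. A830052D11Rik lies opposite Bin1 and reached 8.270 CPM in 20M_222, the library with muscle transcripts, against 1.231 and 3.001 CPM in the other 20M libraries. Without 20M_222 its log2 change was -0.01. The 6M libraries set others: without 6M_202 that of C030034L19Rik was -0.53, that of Gm50186 0.55 and that of Gm41381 0.60, and without 6M_203 that of Gm41381 was 1.66. Without 6M_201 that of Gm50186 was 1.28. At 12M the lowest were Gm26671 at -1.31, AC160336.1 at -1.14, Gm42031 at -1.13 and Gm34059 at -0.99. Without 12M_208 these were -0.82 for Gm26671, -0.75 for AC160336.1, -1.76 for Gm42031 and -0.73 for Gm34059, and 9030622O22Rik at -0.81 and Gm10076 at -0.79 were among the 4 lowest. Gm41442 at 0.83, 9330158H04Rik at 0.75 and Gm49767 at 0.72 were the highest beside Gm36161 at 0.74. The value of Gm41442 rests on 17.18 CPM in 12M_207, against 8.412 and 8.868 CPM in the other 12M libraries. None of these had an adjusted p under 0.05.

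By place in the genome, 50 of the 210 overlap a coding gene, 43 of them on the other strand and 7 on the same strand. The nearest coding gene of the rest lies on the same strand for 80, diverges for 54 and converges for 26. Of the divergent ones, 25 start within 1000 bases of the coding gene's span. The sources used here do not say whether strand was used in counting, so reads of a lincRNA and of a coding gene opposite it cannot be told apart.

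In the lincRNAs that lie opposite a coding gene, the change at 30M was close to that of the coding gene. Over the 39 such pairs in which both were tested, the log2 changes correlated with a Spearman rho of 0.787, the signs matched in 31, and the median gap between the changes was 0.11. Over the 142 pairs without overlap the rho was 0.510, the signs matched in 95, and the median gap was 0.24. Both are descriptions across genes that share the same 12 libraries.

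M5C1000I18Rik had a log2 change of -1.14 (adjusted p = 0.172), and C2cd4b opposite it -1.09 (adjusted p = 0.127). 9330175E14Rik had 1.05 (adjusted p = 0.395), and Nlrc5, an activator of MHC class I genes that lies opposite, 1.09 (adjusted p = 0.0773). In the slope, Nlrc5 was called upward (0.05 log2 per month, adjusted p = 0.0259 by edgeR), and 9330175E14Rik was not (0.05 log2 per month, adjusted p = 0.221). Gm44148 had 0.82, and the interferon-induced gene Usp18 opposite it 0.86, both led by 30M_216. 9330158H04Rik had 0.64 at 30M, and Chrm2, which codes for a muscarinic acetylcholine receptor and lies opposite, rose by 1.08 (adjusted p = 0.0212). In these pairs the lincRNA counts could hold reads of the coding gene. The same holds for all 43 lincRNAs that overlap a coding gene on the other strand. Among those named elsewhere are C030034L19Rik, F420014N23Rik, Gm16933 and Gm44036, which lie opposite Zfp704, Pip4k2c, Plekha2 and Anxa4.

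**Figure D3:**
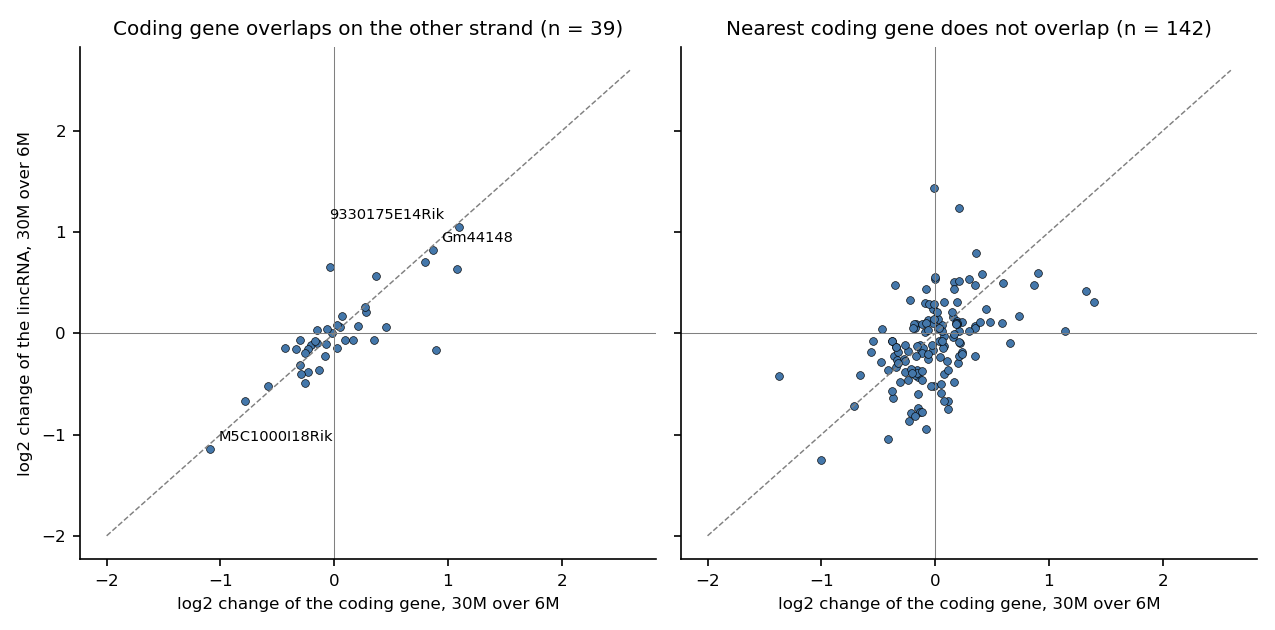
log2 change of each lincRNA at 30M over 6M (vertical) against that of its nearest coding gene (horizontal), for 39 pairs that overlap on opposite strands and 142 pairs that do not overlap; the dashed line marks equal change. The overlapping pairs lie closer to the line, with a median gap of 0.11 against 0.24.

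Immune lincRNAs did not pass the edgeR test at 30M, beside the immune markers given above. AW112010, induced by inflammation in mouse macrophages and T cells, was at 78.06, 72.66 and 49.72 CPM at 30M against 47.92, 45.32 and 39.77 CPM at 6M. Its 30M libraries all lay above 6M, with a log2 change of 0.59 ± 0.26 (SE) and an adjusted p of 0.384. It was called at 30M without 20M_221, 20M_222 and 30M_220 together. Mir142hg had a log2 change of 0.80 ± 0.50 (SE) with an adjusted p of 0.629, its libraries at 30M overlapped those at 6M, and without 30M_218 the log2 change was 0.29. Morrbid, which controls the lifespan of short-lived myeloid cells by restraining its neighbour Bcl2l11, averaged 8.29 ± 1.78 CPM at 30M and 7.17 ± 1.11 CPM at 6M. Gm2682 averaged 2.21 ± 0.465 CPM at 30M and 2.598 ± 1.27 CPM at 6M. By edgeR, 0 of these 4 and Ptgs2os2 were called at 30M, where 1.96% of all tested genes were, so a count of 0 is near the background. DESeq2 called Ptgs2os2 there (adjusted p = 0.0184).

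The list of genes named as small nucleolar RNA hosts held Snhg6, Snhg12, Snhg15, Snhg18 and Snhg20 among the 210, and edgeR called 0 of 5 in any test over age. Over all tested genes the shares were 1.96% at 30M, 0.0163% at 20M, 0% at 12M, 2.68% in the slope and 1.11% in the joint test, so a count of 0 among 5 is near the background. Their log2 changes at 30M ran from -0.29 for Snhg18 to 0.31 for Snhg15. At 30M their libraries spread widely: Snhg20 was at 12.34, 33.38 and 20.24 CPM at 30M against 20.90, 20.06 and 23.61 CPM at 6M. In Snhg6 it was 5.806, 13.61 and 5.367 CPM at 30M against 8.359, 9.080 and 8.731 CPM at 6M. In all 5 of these hosts 30M_218 was the highest of the 30M libraries.

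Of the other lincRNAs with a listed role, Lncpint, a target of p53, averaged 2.51 ± 0.973 CPM at 30M and 2.62 ± 0.739 CPM at 6M. Gm20342 averaged 5.83 ± 1.57 CPM at 30M and 6.30 ± 0.602 CPM at 6M, and Gm26532 13.2 ± 6.22 CPM at 30M and 12.2 ± 3.56 CPM at 6M. Dubr and the lincRNAs after it here are on no role list. Dubr, which is needed for mouse myoblast differentiation, averaged 33.2 ± 5.80 CPM at 30M and 42.1 ± 2.93 CPM at 6M (adjusted p = 0.626). Gm20300 averaged 36.3 ± 8.37 CPM at 30M and 54.7 ± 6.47 CPM at 6M without overlap (adjusted p = 0.412), and Gm37494 45.05 ± 3.30 CPM at 30M and 56.8 ± 4.19 CPM at 6M, also without overlap (adjusted p = 0.492). AU020206 averaged 179 ± 55.7 CPM at 30M and 163 ± 27.4 CPM at 6M, AI480526 66.1 ± 18.2 CPM at 30M and 63.7 ± 7.14 CPM at 6M, and Gm16933 39.4 ± 6.43 CPM at 30M and 34.1 ± 2.21 CPM at 6M. Gm42047 averaged 53.2 ± 17.1 CPM at 30M and 33.8 ± 6.36 CPM at 6M (adjusted p = 0.569 by edgeR). The transcript of AI480526 is 100% identical to that of the lincRNA Gm38102 over 72.5% of its length, so its counts are uncertain. Gm42047 also has near copies.

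The 12M libraries differed among themselves in these lincRNAs. In 12M_208, 61 of 210 lincRNAs, or 29%, were under 0.5 of the mean of 12M_206 and 12M_207, taken on the log2 scale, against 7.37% of all tested genes. Over 2 times that mean were 4, or 1.9%, against 3.15%. The median log2 difference was -0.52 in the 210 and -0.006 in all genes. By biotype, 31.5% of all 463 tested lincRNAs, 44.7% of 38 sense-intronic and 29.4% of 398 TEC transcripts (loci still to be experimentally checked) were under 0.5 of that mean, against 5.1% of 14813 protein-coding and 9% of 1211 antisense genes. This was a comparison of 1 library with 2 others, with no test.

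**Figure D4:**
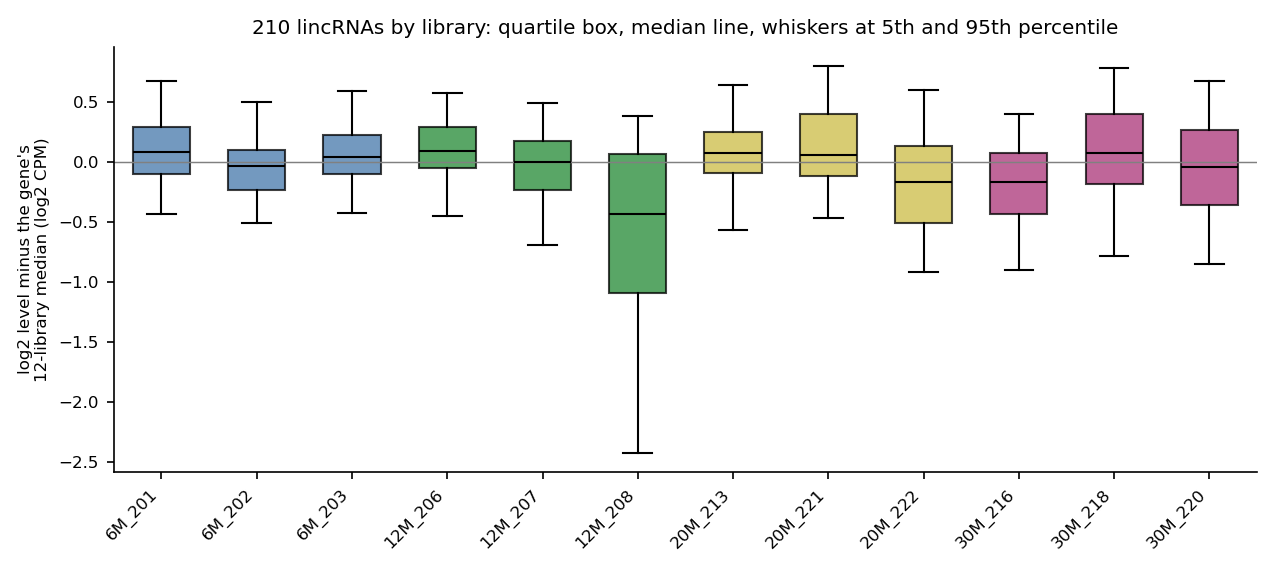
Difference of log2 CPM from each gene's median over the 12 libraries, for the 210 lincRNAs in each library (box for the quartiles, line for the median, whiskers at the 5th and 95th percentile). The median lies at -0.44 in 12M_208 and between -0.17 and 0.09 in the other 11.

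The lincRNAs differed among themselves in 12M_208. Neat1 was at 348.8 CPM in 12M_208 against 1910 and 1575 CPM in the other 12M libraries, and Malat1 at 711.0 against 1451 and 1153 CPM. 2900097C17Rik was at 306.8 CPM in 12M_208 against 284.6 and 294.3 CPM, and Oip5os1 at 186.3 against 192.6 and 180.3 CPM. Neat1 and Malat1 were below both other 12M libraries there, and Norad and Oip5os1 were within or just above their range.

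Loci that hold miRNAs were low together. All 7 were under 0.5 of the mean of the other 12M libraries in 12M_208, with log2 differences from -3.77 to -1.38 and a median of -2.48. Among all 210 lincRNAs 29% were that low, and among all tested genes 7.37%. Mir17hg was at 0.422 CPM in 12M_208 against 7.135 and 8.338 CPM, and 6720427I07Rik, the let-7 host shown above, at 1.014 against 7.586 and 7.496 CPM. Mir142hg was at 1.774 against 7.586 and 8.591 CPM, and E130102H24Rik, the miR-101a host, at 0.591 against 3.981 and 3.369 CPM. Snhg20, which holds miR-6516, was at 2.787 against 19.83 and 18.70 CPM. A230057D06Rik, which spans the miR-344 genes, and 2900076A07Rik, which spans miR-1839, were the others.

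The 5 lincRNAs whose loci hold snoRNAs in the table are Snhg6, Snhg12, Snhg15, Snhg18 and Epb41l4aos, and Snhg20 is not among them. Of these, 2 were under 0.5 of the mean of the other 12M libraries: Snhg15 at 1.014 CPM in 12M_208 against 4.807 and 6.064 CPM, and Snhg6 at 4.307 against 9.088 and 8.507 CPM. Snhg18 was at 17.15 CPM in 12M_208 against 15.10 and 18.53 CPM, a log2 difference of 0.04. The list of genes named as snoRNA hosts includes Snhg20 and also genes outside the lincRNAs described here. On it, 11 of 18 tested genes were under 0.5 of the mean of the other 12M libraries, with a median log2 difference of -1.26. On the list of miRNA host genes it was 6 of 10, with a median of -1.44. These counts stand beside 29% of the 210 lincRNAs, 31.5% of all tested lincRNAs and 7.37% of all tested genes. The low in 12M_208 was therefore not particular to miRNA hosts. Gm15675 had the same low as Mir17hg, at 1.689 CPM in 12M_208 against 33.12 and 18.95 CPM.

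**Figure D5:**
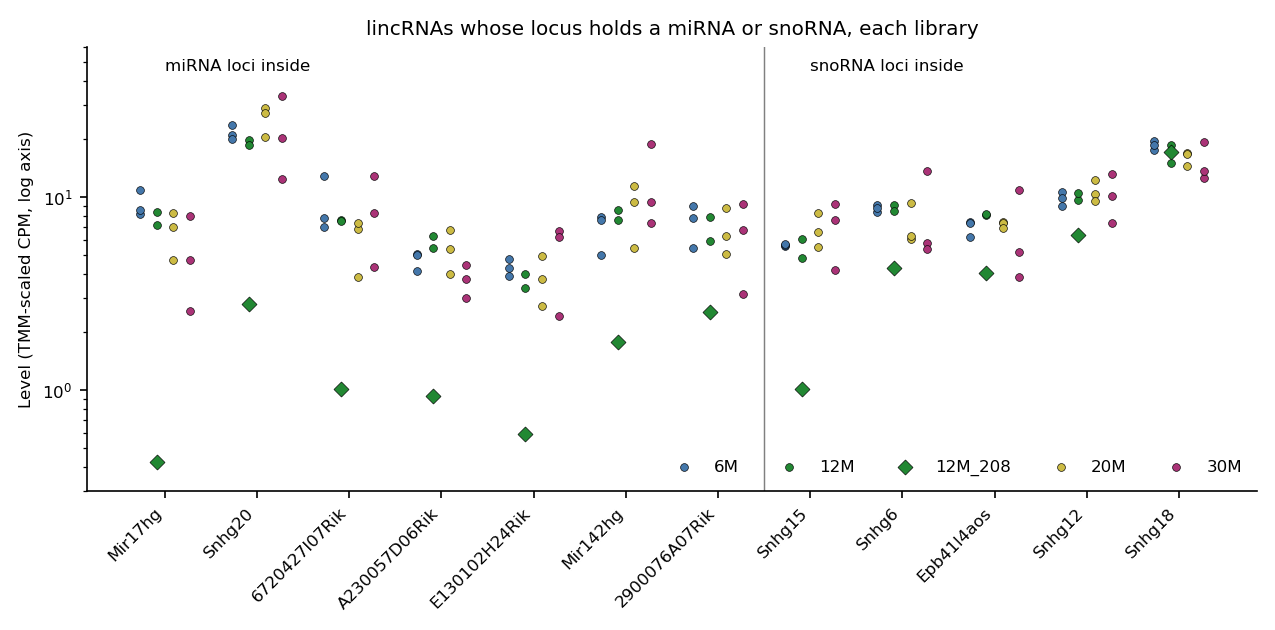
Level of the 7 lincRNAs whose loci hold miRNAs and the 5 whose loci hold snoRNAs in each of 12 libraries (TMM-scaled CPM, log axis), coloured by age, with 12M_208 as a diamond. The diamond is the lowest library in all 7 miRNA hosts and lies among the other libraries in Snhg18.

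Across the lincRNAs, the difference of 12M_208 from the other 12M libraries had a Spearman rho of -0.225 with exon length, 0.222 with GC content, -0.012 with exon number and -0.047 with level (209 or 210 genes, a description with no test). Proteins of nuclear speckles shifted in the same library: 10 of 20 listed genes were under 0.5 of the other 12M mean, against 7.37% of all tested genes, with a median log2 difference of -0.98. The SR protein gene Srsf6 was at 103.3 CPM in 12M_208 against 244.4 and 241.8 CPM. In nonsense-mediated decay factors the median was -0.14 with 3 of 19 under 0.5, and in nuclear exosome genes -0.25 with 3 of 18. In paraspeckle proteins the median was -0.57 with 0 of 19 under 0.5, and in snoRNP proteins 0.05 with 0 of 16. Some cell type markers moved in 12M_208 too. Their median log2 differences were 1.06 in plasma cell, 0.65 in T and NK cell, 0.57 in cardiac muscle and 0.54 in endothelial markers. The medians were 0.48 in mesenchymal, 0.14 in alveolar epithelial, 0.01 in macrophage, -0.02 in skeletal muscle and -0.36 in B cell markers. Endothelial markers summed to 4369 CPM in 12M_208 against 2460 and 2892 CPM. The part of cell composition in the low lincRNAs of 12M_208 was not tested.

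Genes for proteins that hold or degrade noncoding RNAs were also read out. Over 19 paraspeckle, 20 nuclear speckle, 19 nonsense-mediated decay, 18 nuclear exosome and 16 snoRNP genes tested, 0 passed in edgeR at 12M, 20M or 30M against 6M, or in the slope. All tested genes passed at 0%, 0.0163%, 1.96% and 2.68% in these tests. In these tests DESeq2 called 0, and limma voom called 2 at 20M, U2af2 and Snu13, and 0 in the others. In the joint test over the 4 ages, edgeR and DESeq2 called 0 of 92. There limma voom called 4, C1d, Dhx34, Snu13 and U2af2. The share of all tested genes called in the joint test was 1.11% by edgeR. The shares by limma voom are not given here, so its counts have no background beside them. The median log2 changes of these lists at 30M were 0.0008, -0.13, -0.02, -0.0009 and 0.009, in the order given above. At an unadjusted p under 0.05, edgeR gave 0 of these genes at 30M, 1 speckle gene at 20M, 1 exosome gene at 12M, and 1 speckle and 1 decay gene in the slope, where all tested genes gave 11.6%, 7.8%, 3.6% and 13.3%. The smallest p at 30M in these lists was that of U2af2, a splicing factor, at 147 ± 20.1 CPM at 30M and 123 ± 6.90 CPM at 6M (adjusted p = 0.548). Exosc7, an exosome subunit, averaged 55.4 ± 12.6 CPM at 30M and 75.4 ± 0.592 CPM at 6M (adjusted p = 0.625). Son, a speckle scaffold protein, averaged 421 ± 45.2 CPM at 30M and 515 ± 33.8 CPM at 6M (adjusted p = 0.670).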

How the data were processed

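Lung RNA of C57BL/6NCr mice was measured at 4 ages by poly-A RNA sequencing, with 3 libraries per age, named by age and the number in their titles. The deposited table holds raw whole-number counts for each gene. The submitters' processing notes name GRCm38 (mm10) as the build, and list HISAT2 2.1.0, featureCounts, FastQC 0.11.7 and Trimmomatic 0.38. Annotation release and strand setting: not given in the sources used here. Counts of overlapping genes and near-identical copies are therefore uncertain. Nothing in the labels ties a library to an animal of its own, and the p-values cover only the spread among libraries, which may be technical.

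The lincRNAs were chosen on CPM from library totals. All genes were then tested in 1 fit over the 12 libraries with edgeR 4.0.16 in R 4.3.3 (TMM, filterByExpr by age, robust quasi-likelihood F test). Benjamini-Hochberg adjustment ran over all 18407 genes tested, and a gene is called at an adjusted p under 0.05. All 210 lincRNAs passed the filter. SE is the size of the log2 change over the square root of F. Differences between single libraries use log2 CPM with a prior count of 2. Tests were checked on simulated counts with known changes. For 30M against 6M, the share of planted differences that was found depended on their size. It was 8.96% at a size of 1.5, 47.8% at 2 and 92.4% at 4 times. The changed genes were drawn from all tested genes at 2 CPM or more, not from the lincRNAs. The median coefficient of variation was 29.1% in the lincRNAs and 18.6% in such genes, so these shares may be too high for lincRNAs. Among the 102 calls made there, 3 were false. A lincRNA that differed by 2 times or less could therefore often go uncalled. Alternatives were DESeq2 1.42.0, limma 3.58.1 (voom), other scalings and filters, a GC trend removed from each library (span 0.3), and libraries left out. Lengths, exons and GC content come from GENCODE M21 on GRCm38, near copies from BLAST 2.17.0, and promoters and miRNAs from RefSeq on GRCm38.p6.

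The text names every lincRNA called in the main edgeR fit, the 12 with the most counts, the 8 largest log2 changes each way at 30M and the 4 each way at 20M and 12M, those on the role lists, those beside the 2 CPM limit, those with 1 far library, and genes among the 3 smallest p of a protein list. A few others were named after their values were seen. The lincRNAs, lists and alternatives were chosen with earlier results of these data known. At 1 CPM a library holds a few more than 10 counts, so counting error alone is large for the lowest lincRNAs.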

Additional observations from a re-analysis of the deposited data

How the results depend on the processing

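At 30M against 6M, 1 lincRNA was called in the main analysis. DESeq2 called 3 (Gm36161, Ptgs2os2 and 2410004I01Rik), limma voom called 2 (Gm36161 and Gm5547), and leaving out 20M_221, 20M_222 and 30M_220 together gave 2 (Gm36161 and AW112010). Leaving out each library in turn gave 0 to 1, with 0 without 6M_202 or 6M_203. At 20M limma voom called 3 (Gm30928, Gm20300 and 1700086O06Rik), and DESeq2 and the other alternatives called 0. In the joint test DESeq2 called 4 and limma voom 9, against 1, and leaving out each library gave 0 to 1, with 0 without 6M_202, 6M_203, 12M_208, 30M_216 or 30M_218. In the slope DESeq2 called 5, the fit without 20M_221, 20M_222 and 30M_220 called 4, and age on a log2 scale called 1, against 2; leaving out each library gave 1 to 4. The 4 without those libraries all rose and did not include Ptgs2os2. The shares of all tested genes called by DESeq2, limma voom and the other alternatives are not given here. These counts can therefore not be placed above or below a background. Without Malat1 the share of counts was 0.414% at 6M, 0.437% at 20M and 0.419% at 30M. With each library left out in turn, the log2 change at 30M of Gm50321 ran from -0.2724 (without 30M_218) to 1.194, and that of Gm44148 from -0.01727 (without 30M_216) to 1.161. For the 16 lincRNAs with the largest changes at 30M, 345 of 352 values under an alternative kept their direction and their side of the threshold. Only Gm36161 among them was called in the main fit, so for the rest keeping the side meant staying uncalled. Chosen for large changes, they were also likely to keep their direction. The fit without 20M_222 entered more than once. The causes of the moves were not tested. With limits of 1 and 5 CPM the set held 325 and 108 lincRNAs, and Gm36161 was the 1 called at 30M in each. No paired analysis was possible because the ages share no replicate numbers.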
